A study of Mus musculus with 4 samples.

Results

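The genes described here are 10 members of the BCL-2 family, taken by name from the deposited count table of RNA-seq libraries of BV-2 cells: Bcl2a1a, Bcl2a1b, Bcl2a1d, Mcl1, Bcl2l1, Bcl2l11, Bax, Bak1, Bid and Bbc3. They are 10 of 23783 genes with a symbol in the table, and each gene was represented by its most abundant RefSeq transcript record. BV-2 is an immortalised mouse microglial line, a model of the macrophages of the brain. The study compared 2 control libraries with 2 libraries of cells given lipopolysaccharide (LPS), a bacterial outer membrane component sensed by Toll-like receptor 4, at 10 ng/ml for 4 h. The titles give 4 h for the controls too, and the labels name no vehicle, and no other agent that sets the groups apart. The growth text in the labels also mentions shaking of mixed glial cultures, so it does not settle how the cells were grown. Nothing in the labels tells if replicates were grown apart, and p-values thus measure only how these libraries spread, which may be technical.

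BCL-2 family proteins decide whether the outer mitochondrial membrane is opened, the step that releases cytochrome c and starts caspase activation. Pro-survival members (A1, encoded by the Bcl2a1 genes, MCL-1 from Mcl1, and BCL-XL from Bcl2l1) hold the pore-forming effectors BAX and BAK in check. BH3-only members (BIM from Bcl2l11, BID and PUMA from Bbc3) release that brake or activate the effectors directly. In myeloid cells A1 and MCL-1 are known as survival factors, A1 as a target of NF-kB and MCL-1 as a protein with a short life.

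Library totals ran from 2778686 to 3368693 counts, of which the 5 most abundant records took 53.4% to 67.5%. After scaling by TMM and a filter on low counts, edgeR's quasi-likelihood test was run on 6981 records, of which LPS raised 267 and lowered 119 (adjusted p below 0.05). Removing a trend on GC and length gave 429 raised and 323 lowered records. The 2 controls differed from each other along GC content (Spearman's rho of their log2 ratio with GC 0.662, across 6924 records that are not independent), more than the 2 LPS libraries did (0.266). Microglia and macrophage markers were present, among them Tyrobp, a signalling adaptor of myeloid cells, at 1013 ± 97.0 normalised counts in controls and 895 ± 39.1 after LPS (SD, n = 2), and 7 of 12 were tested with a median log2 fold change of -0.18. The 12 markers summed to 3281 to 3625 normalised counts in the controls and 3933 to 3939 after LPS, and the 11 other than Spi1, the 1 marker that rose, to 2843 to 3045 and 2811 to 2812. The defining marker Itgam was at 0 in all 4 libraries and Trem2 had 1 count, both with 2 transcript records in the table. The other markers not tested were also low. Aif1 had 3 and 7 counts in controls and 4 and 3 after LPS, and Cx3cr1 had 4 and 2, then 9 and 8, with 1 record each. Ptprc, with 3 records, had 0 and 5 counts in controls and 5 and 1 after LPS in its most counted record. Counts summed over 8 astrocyte, 9 oligodendrocyte lineage, 7 neuron and 6 fibroblast markers were 0 to 2 in each library and list.

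The Bcl2a1 genes are near-identical copies on chromosome 9, so their sequences bear on how far their counts can be told apart. Bcl2a1a lies at chr9:88956920-88962416 and Bcl2a1b at chr9:89199273-89207838, both on the plus strand, and Bcl2a1d at chr9:88723288-88731850 on the minus strand (RefSeq on GRCm38.p6, the assembly behind mm10). Their coding sequences are 516 bases long, and 12 of these positions differ among the copies, 7 of them in the first 120. These first 120 coding bases, from the start codon in the first exon, are shown with the positions that differ among the copies in capitals (GENCODE M21 transcripts, GRCm38, read 5′ to 3′ on the gene's strand; chr9:88957051-88957170, chr9:89199360-89199479 and chr9:88731600-88731719).
Bcl2a1a: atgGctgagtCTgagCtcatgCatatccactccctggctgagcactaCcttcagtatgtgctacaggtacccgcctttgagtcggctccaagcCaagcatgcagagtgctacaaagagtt
Bcl2a1b: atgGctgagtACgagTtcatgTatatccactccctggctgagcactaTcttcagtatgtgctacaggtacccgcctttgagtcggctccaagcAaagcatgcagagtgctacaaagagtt
Bcl2a1d: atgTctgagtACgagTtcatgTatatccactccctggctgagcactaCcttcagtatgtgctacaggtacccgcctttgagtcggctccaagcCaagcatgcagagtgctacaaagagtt

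Over the whole coding sequence Bcl2a1b and Bcl2a1d were 98.8% identical, Bcl2a1a and Bcl2a1d 98.6%, and Bcl2a1a and Bcl2a1b 97.9%. Of the windows of 101 bases, the read length given in the labels, 56.3% of the Bcl2a1b transcript, 54.0% of Bcl2a1d and 43.1% of Bcl2a1a also occurred in a transcript of another gene, either another copy or Gm29094. That left 313, 351 and 409 windows, respectively, that occurred in no other gene. A read from a shared window cannot be given to 1 copy by its own sequence, and the labels do not tell how the authors counted such reads.

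The stretch just upstream of the Bcl2a1 transcripts is alike as well. It is shown for the 2 copies that held nearly all the counts, with the sequence GAGGAAGT in capitals (RefSeq, GRCm38.p6; chr9:89199023-89199164 on the plus strand and chr9:88731915-88732050 on the minus strand, read 5′ to 3′ towards the gene).
Bcl2a1b: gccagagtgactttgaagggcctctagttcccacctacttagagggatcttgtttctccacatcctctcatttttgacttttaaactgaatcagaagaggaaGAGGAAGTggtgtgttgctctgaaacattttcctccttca
Bcl2a1d: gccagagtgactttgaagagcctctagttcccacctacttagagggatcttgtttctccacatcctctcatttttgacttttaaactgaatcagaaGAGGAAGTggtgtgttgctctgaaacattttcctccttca

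The stretch of Bcl2a1a was identical to that of Bcl2a1b, and that of Bcl2a1d differed from both by 1 base and a gap of 6 bases. The sequence GAGGAAGT, on either strand, was present in the 250 bases before the annotated start of all 3 copies and of Bak1, and in 2.44% of 32851 such windows genome-wide. The sequence TGANTCA was present before the 3 copies and no other member, and in 6.75% of all windows. The NF-kB consensus of 10 letters was found before Bcl2l1 and Bbc3, and in 7.25% of all windows and TGTTTAC before Bcl2l11 and Bbc3, and in 3.17%. TGACGTCA was found before no member and in 1.55% of all windows. All motifs were chosen after the sequences were seen. Most members have 1 annotated start, Bcl2l11 has 2, and Bcl2l1 and Bbc3 have 3, each with its own window. A match describes the letters only.

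LPS raised the pro-survival genes Bcl2a1b, Bcl2a1d and Mcl1, and the effector and BH3-only genes that could be tested did not pass. Of the 10 members, 6 passed the count filter, 3 of these were higher and none was lower, where 3.82% of all records tested were higher, 1.70% lower and 5.53% either. Both LPS libraries were above both controls for 4 of the 6 tested members, against 21.4% of all records, and below both for 1, Bid, against 21.9%. The median log2 fold change of the 6 tested members was 0.51, and 0.14 without Bcl2a1d, against -0.01 for all 6981 records. Of the 3 members that rose, Bcl2a1d reached the minimum count of the filter in both LPS libraries but not in both controls, where it is low. The filter does not ask for libraries of the same group, and how far the entry of Bcl2a1d rested on its rise was not tested. The 4 members not tested were Bcl2a1a, Bbc3, Bcl2l1 and Bcl2l11. No member was lower by DESeq2 or limma-voom, and none had an unadjusted p below 0.05 and a negative value.

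**Figure D1:**
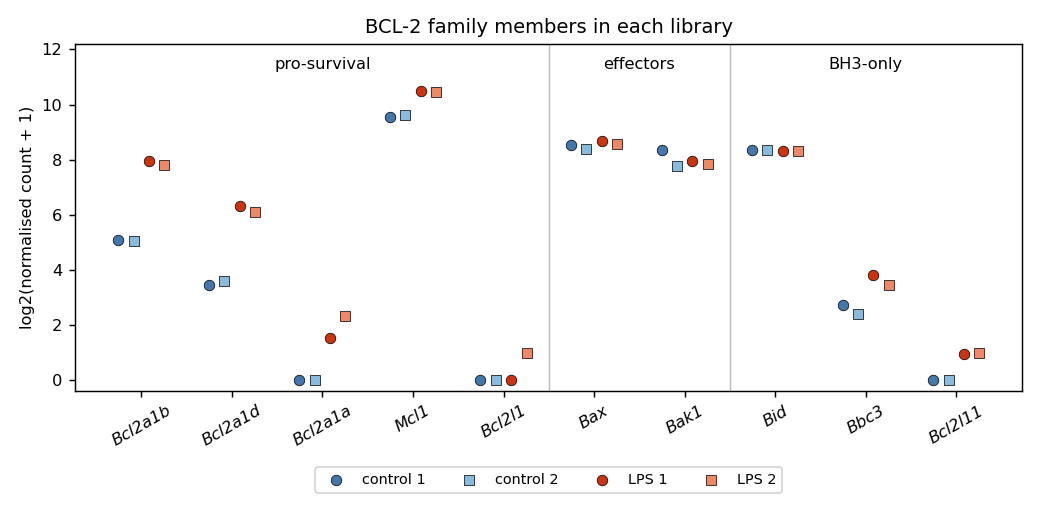
Each point is log2(normalised count + 1) of a member in 1 library, with 2 control (blue) and 2 LPS libraries (red). Bcl2a1b, Bcl2a1d and Mcl1 lie higher in both LPS libraries than in both controls, Bid and Bax hardly move, and Bcl2a1a, Bcl2l1 and Bcl2l11 lie near 0.

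Bcl2a1b (NM_007534), the most counted of the A1 copies, had 32.4 and 32.1 normalised counts in the control libraries and 244 and 223 after LPS. Normalised counts are counts divided by the TMM-scaled library size and multiplied by the mean of these sizes. The LPS values were far above the controls, which differed by less than 1 count, and the gene rose from 32.2 ± 0.198 to 234 ± 14.9 (SD, n = 2), a log2 fold change of 2.85 (SE 0.236, edgeR adjusted p 1.94e-05). Bcl2a1d (NM_007536) had 9.85 and 10.97 normalised counts in controls and 77.7 and 67.5 after LPS. It rose 6.83-fold, with a log2 fold change of 2.77 (SE 0.325, edgeR adjusted p 0.00026). Over all alternatives that could test them, the log2 fold change stayed between 2.63 and 2.93 for Bcl2a1b and between 2.55 and 2.88 for Bcl2a1d, and both kept an adjusted p below 0.05. The annotated span of Bcl2a1d lies within that of Gm10634, and the labels do not tell how reads in shared spans were counted.

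The share of Bcl2a1b among the counts of the 2 expressed A1 copies was close in all 4 libraries. Bcl2a1b made up 76.7% of the Bcl2a1b and Bcl2a1d counts in control replicate 1 (23 of 30, exact 95% interval 57.7% to 90.1%) and 74.5% in control replicate 2 (38 of 51, 60.4% to 85.7%). The share was 75.9% in LPS replicate 1 (264 of 348, 71.0% to 80.3%) and 76.8% in LPS replicate 2 (228 of 297, 71.5% to 81.5%). All 4 intervals overlapped while the counts rose, and the wide control intervals, which cover counting error only, would hide a modest shift. Bcl2a1a (NM_009742) had 0 counts in both controls and 2 and 4 after LPS, at least 1.802-fold higher if the controls are set to a floor of 3 counts over the group. The exact 95% interval of its rate ratio reaches lower, to 1.06, and without the count filter its edgeR adjusted p was 0.38, so no rise was shown for this copy. It had more windows of its own than either other copy. Bcl2a1c, a shorter copy at chr9:114330135-114330578, had 0 counts in all 4 libraries.

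With the counts of Bcl2a1a, Bcl2a1b and Bcl2a1d summed before the fit, the A1 genes had 42.2 and 43.0 normalised counts in controls and 324 and 294 after LPS. The log2 fold change of the sum was 2.85 (SE 0.224, edgeR adjusted p 1.36e-05). The value for the sum does not depend on how the counted reads were divided among the 3 copies. It does not cover reads given to Gm29094, or shared reads left uncounted, if there were any. Among the 267 records that rose, Bcl2a1b ranked 71 and Bcl2a1d 76 by fold change.

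Mcl1 (NM_008562, chr3:95656944-95663179, plus strand) was the most counted member, with 745 and 794 normalised counts in controls and 1451 and 1392 after LPS. Both LPS values were well above both controls, and the groups were further apart than the libraries within them. Mcl1 rose from 770 ± 34.4 to 1421 ± 41.7 (SD, n = 2), 1.84-fold, with a log2 fold change of 0.88 (SE 0.172, 95% interval 0.50 to 1.26, edgeR adjusted p 0.0102). Among the 267 records that rose it ranked 255 by fold and 26 by the number of normalised counts added. The call was lost without LPS replicate 1 (log2 fold change 0.87, adjusted p 0.365) and without LPS replicate 2 (0.92, adjusted p 0.323), where only the control pair gave the spread, while over all alternatives the log2 fold change stayed between 0.85 and 0.93. In bulk RNA a change in the number of cells and a change in RNA per cell cannot be told apart.

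**Figure D2:**
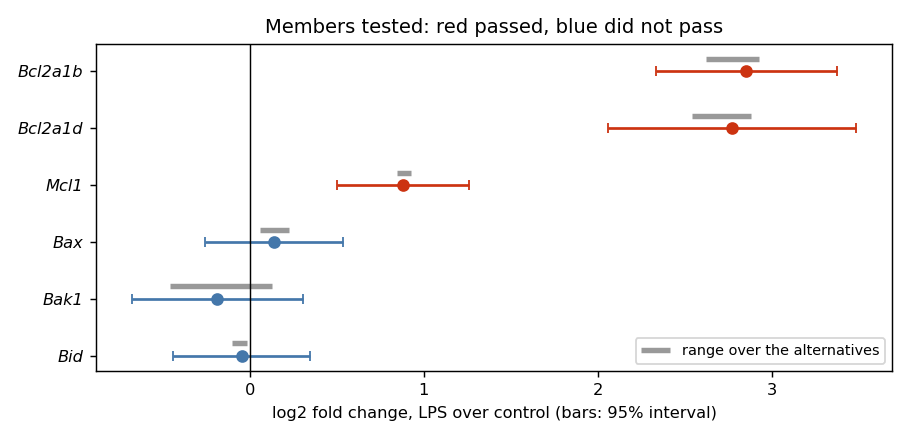
Points are fitted log2 fold changes of the 6 tested members (LPS over control) with 95% intervals, in red where the adjusted p was below 0.05, and grey bars give the range over the alternative analyses. Bcl2a1b, Bcl2a1d and Mcl1 lie above 0 in every alternative that tested them. The 95% intervals of Bax, Bak1 and Bid all include 0, and of the grey bars that of Bak1 crosses it.

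Bcl2l1, the gene of the third pro-survival protein, could not be assessed. Its 4 records (chr2:152758732-152833803) held 2 counts in all, both in LPS libraries. Records of genes with several transcript records were seldom counted in this table: 34.8% of 19018 genes with 1 record had a tested record, against 6.09% of 4765 genes with 2 or more. Summing the records of a gene changed nothing for Bcl2l1, since so few counts were in any of them. What part the counting of such genes had in these low values was not tested.

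**Figure D3:**
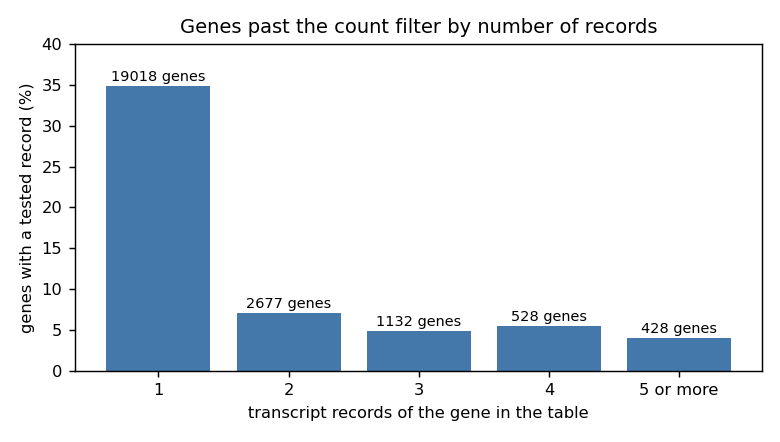
Bars give the percentage of genes with at least 1 tested record, by the number of transcript records the gene has in the deposited table, with the number of genes above each bar. The share falls from 34.8% with 1 record to 7.06% with 2 records, and is 5.49% with 4 records as for Bcl2l1 and 3.97% with 5 or more as for Bcl2l11.

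The effectors BAX and BAK form the pores. Bax (NM_007527, chr7:45461695-45466903, minus strand) had 371 and 333 normalised counts in controls and 402 and 374 after LPS. The LPS values lay above the controls by no more than the controls differed, and the log2 fold change of 0.14 did not pass (95% interval -0.26 to 0.54, edgeR adjusted p 0.852). Of the windows of the Bax transcript, 12.1% also occurred in Gm45808. Bak1 (NM_007523, chr17:27019812-27028627, minus strand) had 326 and 219 normalised counts in controls and 248 and 228 after LPS, so that its groups overlapped. Its log2 fold change was -0.19 (95% interval -0.68 to 0.31, edgeR adjusted p 0.836). The value rests on the control library used: it was 0.13 without control replicate 1 and -0.46 without control replicate 2. With a control left out, only the LPS pair gave the spread. Control replicate 1 held the high value, and Bak1 has a GC content of 57.1%. After removal of the GC and length trend its log2 fold change was -0.16 (adjusted p 0.556). The span of Bak1 overlaps that of Ggnbp1.

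Of the BH3-only members, Bid was abundant and flat, Bbc3 was scarce and Bcl2l11 not assessable. Bid (NM_007544, chr6:120893119-120917062, minus strand), which death-receptor caspases cut into its active form, had 322 and 328 normalised counts in controls and 313 and 317 after LPS. Both LPS values lay just below both controls, and the log2 fold change of -0.05 did not pass (95% interval -0.44 to 0.35, edgeR adjusted p 0.964). The interval leaves room for a change of up to -0.44 or 0.35 on the log2 scale for Bid, and for wider changes in Bax and Bak1. Bbc3 (NM_133234, chr7:16308398-16318334, plus strand), the PUMA gene and a target of p53, had 4 and 5 counts in controls and 14 and 10 after LPS. Its rate ratio was 2.40 with an exact 95% interval of 1.08 to 5.87 for counting error only. It was below the count filter, and without the filter its log2 fold change was 1.26 with an adjusted p of 0.299 in edgeR. Bcl2l11 (chr2:128126038-128162547), the BIM gene, held 0 counts in controls and 2 after LPS over its 5 records.

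**Figure D4:**
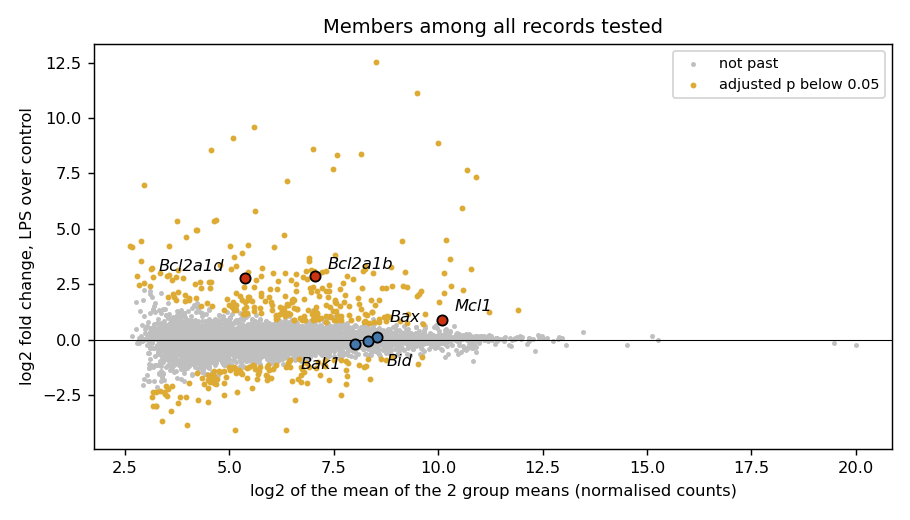
Each point is a tested record, with its log2 fold change (LPS over control) against the log2 of its mean normalised count. Records past the threshold are yellow, and the 6 tested members are marked. Bax, Bak1 and Bid lie within the grey band around 0, and Mcl1 stands above it among the abundant records.

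Levels of different genes were compared as normalised counts per kilobase of transcript. In the controls Bax was the highest member, at 428 and 385 per kilobase, followed by Mcl1 at 218 and 232, Bid at 147 and 150, Bak1 at 137 and 91.6, and the 3 A1 copies together at 51.0 and 52.0. Bid and Bak1 did not differ beyond the spread between the Bak1 controls, the lower of which lay well under Bid. Both Bak1 controls lay above the A1 copies, the lower one by less than the Bak1 controls differed. The other neighbours in this order were further apart than their libraries. After LPS the levels per kilobase were 464 and 431 for Bax, 424 and 407 for Mcl1, 391 and 356 for the A1 copies, 143 and 145 for Bid, and 104 and 95.5 for Bak1. After LPS the ranges of Bax and Mcl1 lay close together without overlap, and the A1 copies stood just under Mcl1 in place of last.

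The A1 copies made up 19.0% and 18.3% of the summed A1 and Mcl1 level per kilobase in the controls and 48.0% and 46.6% after LPS. The ratio of that sum to the summed level of Bax and Bak1 was 0.476 and 0.597 in the controls and 1.44 and 1.45 after LPS. The A1 and Mcl1 transcripts thus went from below to above those of Bax and Bak1. With 2 libraries against 2, an exact two-sided permutation test cannot give a p below 0.333, and none is given for these ratios. The ratios leave out Bcl2l1, and they describe transcripts, not proteins. They also leave out the pro-survival genes Bcl2l2, at a mean of 13.4 per kilobase in controls and 16.6 after LPS, and Bcl2, at 1.37 and 0.669. Shared windows among the A1 copies and Gm29094, and between Bax and Gm45808, also touch these levels, in a way that was not tested.

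**Figure D5:**
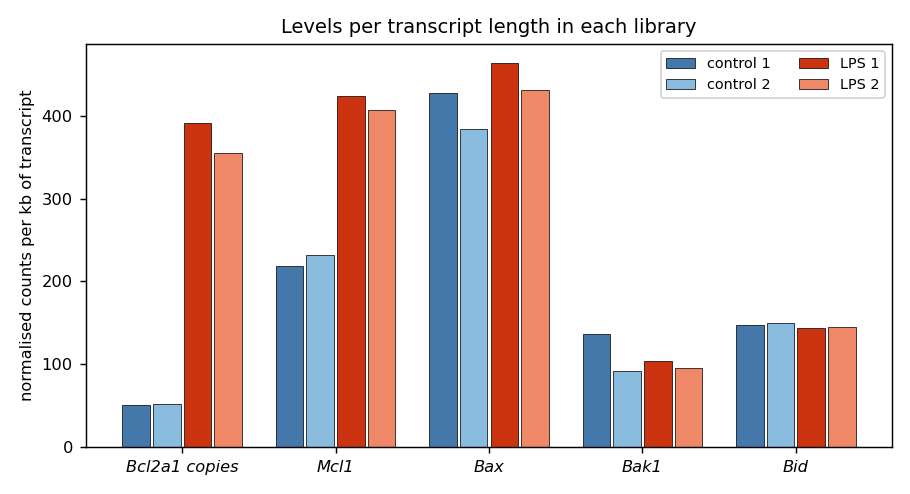
Bars give normalised counts per kilobase of transcript in each of 2 control (blue) and 2 LPS libraries (red). The A1 copies go from 51.0 and 52.0 to 391 and 356, Mcl1 goes from 218 and 232 to 424 and 407, and Bax stays between 385 and 464.

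The other 16 genes of the family gave no call: 6 were tested and none passed in edgeR at the threshold, with a median log2 fold change of -0.33, or -0.09 without Bmf. Bmf, a BH3-only gene, had 35.2 and 16.9 normalised counts in controls and 7.40 and 8.80 after LPS, below both controls. Its log2 fold change was -1.59 (SE 0.481, edgeR adjusted p 0.0974), and it met the count filter through the controls alone, where it is high. It passed without a filter on low counts (edgeR adjusted p 0.00812) and after removal of the GC and length trend (edgeR adjusted p 0.0415). Over all alternatives the value ran from -2.11 to -1.04. The lowest was without control replicate 2, where only the LPS pair gave the spread. Bik, another BH3-only gene, went the other way, with 1 and 0 counts in controls and 7 and 3 after LPS. Its rate ratio was 9.01 with an exact 95% interval of 1.28 to 391 for counting error only, and it was below the count filter. Bmf and Bik were named after their values were seen. Bnip3l, a mitophagy receptor related to the family and the most abundant of this list per length, had 198 ± 25.5 and 191 ± 20.4 normalised counts (SD, n = 2; log2 fold change -0.06, edgeR adjusted p 0.958). Bcl2, the founding member, had 7.03 and 12.7 normalised counts in controls and 2.77 and 6.85 after LPS in its most counted record and was not tested.

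Of the genes downstream and around the family, 2 passed the threshold, both upwards. Over all records tested, 5.53% passed in either direction and 3.82% upwards, and whether these lists differ from that was not tested. Among 9 inhibitor of apoptosis genes, 5 were tested and Birc3 was higher. Birc3, which encodes cIAP2, a ubiquitin ligase of TNF receptor complexes and a known NF-kB target, had 15.5 and 20.3 normalised counts in controls and 69.3 and 68.5 after LPS. The log2 fold change was 1.91 (SE 0.298, edgeR adjusted p 0.00244), and it stayed between 1.77 and 2.14 over the alternatives. Birc6, the most abundant of this list per length, did not pass (log2 fold change -0.10, edgeR adjusted p 0.929), with 757 and 1232 normalised counts in the 2 controls. Its log2 fold change was -0.40 without control replicate 1 and 0.29 without control replicate 2, where only the LPS pair gave the spread. The list median was -0.10.

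Of 11 caspase and substrate genes, 5 were tested and Casp4 rose. Casp4, the gene of caspase-11 that senses LPS in the cytosol, had 16.9 and 18.6 normalised counts in controls and 46.2 and 61.6 after LPS (log2 fold change 1.58, SE 0.321, edgeR adjusted p 0.0128). The call was lost without LPS replicate 2 (adjusted p 0.157) and in the DESeq2 Wald test (adjusted p 0.0592). Parp1, a DNA repair enzyme cut by executioner caspases, had 283 and 264 normalised counts in controls and 190 and 212 after LPS. It did not pass (log2 fold change -0.44, edgeR adjusted p 0.297), but did with the replicate block and the GC and length trend removed (-0.38, edgeR adjusted p 0.0403). Without control replicate 2, where only the LPS pair gave the spread, the log2 fold change was -0.50. The median of this list was -0.24.

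No call was made among 11 apoptosome and mitochondrial factors (7 tested, median -0.11), 11 death receptor genes (8 tested, median 0.21, or -0.13 without the 3 that did not reach the minimum count in both libraries of each group) or 12 regulators of the family (3 tested, median -0.27). Vdac2, an outer membrane channel known to bind BAK, was the most abundant of the mitochondrial list per length, with 1028 ± 8.31 and 1048 ± 72.0 normalised counts (SD, n = 2). Tnfrsf1a, the gene of TNF receptor 1, had 229 and 160 normalised counts in controls and 183 and 180 after LPS, within the spread of the controls. Huwe1, a ubiquitin ligase of MCL-1, had 1243 ± 26.9 and 1328 ± 60.8 normalised counts (SD, n = 2; log2 fold change 0.10, edgeR adjusted p 0.907). Fas, a death receptor gene, had 2 and 3 counts in controls and 15 and 12 after LPS, with a log2 fold change of 2.23 and an edgeR adjusted p of 0.0534 that fell on either side of the threshold over the alternatives. Cflar, of the same list, had 0 and 6 counts in controls and 19 and 12 after LPS in its most counted record. Its log2 fold change was 2.19 (edgeR adjusted p 0.124), and alternatives are given for Fas but not for Cflar. Both genes met the count filter through the LPS libraries alone, where they are high, and both were named after their values were seen. Spi1, the gene of the myeloid factor PU.1 and 1 of the macrophage markers, rose from 509 ± 100.0 to 1125 ± 5.02 normalised counts (SD, n = 2; log2 fold change 1.15, edgeR adjusted p 0.00391), with an adjusted p of 0.0514 without LPS replicate 1 and 0.0823 without LPS replicate 2.

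The records whose pattern was most like that of Bcl2a1b were found by the distance between centred log2(normalised count + 1) profiles over the 4 libraries. They were Cebpd, a C/EBP transcription factor gene, at a distance of 0.086, Adora2b, an adenosine receptor gene, at 0.153, and Icosl, a costimulatory ligand gene, at 0.169. Cebpd had 32.4 and 30.4 normalised counts in controls and 249 and 213 after LPS. Adora2b had a log2 fold change of 2.99 and Icosl of 2.75, on either side of the value of Bcl2a1b.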

How the data were processed

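Libraries were directional, depleted of ribosomal RNA and sequenced in paired-end mode with reads of 101 bases, per the labels' protocols. The authors deposited whole-number counts per RefSeq transcript record (32915 records). Although its name speaks of normalisation, every value is whole and column totals differ, and the values were used as raw counts. Per the submitters' processing notes, HTSeq 0.6.1, TopHat2 2.0.10, Trimmomatic 0.33, Cufflinks 2.2.1 and CASAVA 1.8.2 were used with mm10. Annotation, strand and other settings: not given in the sources used here.

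Symbols and positions came from RefSeq on GRCm38.p6 (32487 records matched, 428 did not). Length and GC content came from GENCODE M21 transcripts (99.2% of the records tested). Records were kept by filterByExpr (minimum count 10) and tested by edgeR 4.0.16 (R 4.3.3) with TMM and no covariate, with Benjamini-Hochberg adjustment over all 6981 records and a threshold of 0.05. A standard error is the log2 fold change divided by the square root of the F statistic. Low members have exact conditional rate ratios. Alternatives used DESeq2 1.42.0, limma 3.58.1, other filters and scalings, summed records, left-out libraries, the replicate number as a block and a spline trend on GC content and length. The fits were tested on simulated data. List medians without genes low in 1 group, and the marker sum without Spi1, were added after seeing the data.

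The members, lists and tests were chosen with earlier results of these data known. All members are named, and of the other lists each gene past the threshold, the most abundant per length that did not pass, and the 3 profiles most alike. Without molecular identifiers, intervals and floors stand for counting error alone.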

Additional observations from a re-analysis of the deposited data

How the results depend on the processing

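The count of members that were higher was 3 under most alternatives and 2 where a library of the LPS group was left out (Mcl1 lost) or where a mean of 50 normalised counts was required, which Bcl2a1d did not reach. The count of members that were lower ran from 0 to 1 with a library left out, the 1 being Bak1. Over all records the numbers moved more. Records higher were 164 under that mean filter, 429 with the GC and length trend removed, and 165 to 723 with a library left out. Records lower were 66 in the DESeq2 Wald test, 209 without a filter, 54 with a mean of at least 50, 323 with the GC and length trend removed, and 39 to 581 with a library left out.

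The replicate numbers are only shared numbers, since 2 pairs cannot show pairing (the replicate differences of the 2 groups had a Pearson correlation of 0.242 across records). With the replicate block 401 records were higher and 288 lower, and 555 and 535 with the block and the GC and length trend removed, while 3 members were higher and none lower in both. Of the named genes other than Cflar that did not pass, the block brought Bmf (-1.62, edgeR adjusted p 0.00514) and Fas (2.199, edgeR adjusted p 0.0232) past the threshold. With the GC and length trend removed as well, Bmf (adjusted p 0.00427), Fas (adjusted p 0.0266) and Parp1 (-0.38, adjusted p 0.0403) passed.

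Values of genes that did not pass changed sign as follows. With a library left out, Bak1 ran from -0.46 to 0.13, Tnfrsf1a from -0.34 to 0.19, Bnip3l from -0.17 to 0.079 (0.063 without LPS replicate 1), Birc6 from -0.40 to 0.29 and Vdac2 from -0.028 to 0.11. Birc6 was 0.011 with the block and the GC and length trend removed. Vdac2 was -0.00073 with the mean filter, -0.051 after removal of the GC and length trend, and -0.053 with the block added. The cause was not tested. Low counts limit Bcl2a1a, Bbc3, Bcl2l1 and Bcl2l11, which held at most 33 counts each.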
